A study of Nicotiana tabacum with 6 samples.

Results

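The genes described here encode the photosystem I (PSI) and photosystem II (PSII) proteins that the nucleus supplies to the chloroplast, the electron carrier plastocyanin and the small subunit of RuBisCO. They were chosen by the first protein description that the deposited tables give a gene. It had to name a photosystem, an oxygen-evolving enhancer, plastocyanin or the RuBisCO small chain, and it could not be a chlorophyll a-b binding protein or carry the tag of a chloroplast gene. By this rule 47 of 31766 gene identifiers were members. Of these, 42 had the description of a nuclear gene. The other 5 had best protein hits to products that plastid genomes encode (the P700 apoprotein A1 of PSI, the 47 kDa protein and D1 of PSII), so the name of nuclear subunits did not hold for them. They are described as a class of their own and are included in the counts over all members.

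Both photosystems are pigment-protein complexes of the thylakoid membrane that work in series. PSII takes electrons from water, plastocyanin carries electrons to PSI, and PSI passes them to ferredoxin, while RuBisCO fixes carbon dioxide in the stroma. The reaction centre cores and the RuBisCO large subunit are made in the plastid and most of the smaller subunits are imported from the cytosol. In dark-imbibed seeds the plastids are still undeveloped, whereas green seedlings are known for very abundant transcripts of these subunits.

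RNA was sequenced from 6 libraries of tobacco (*Nicotiana tabacum* var. Xanthi), which form 3 comparisons of a transgenic (T) with a nontransgenic sibling (NT) library. DS10:A9 seeds carry the sunflower heat stress factor A9 and DS10:A4a seeds the sunflower factor A4a, both driven by the seed-specific DS10 promoter. 35S:A9 seedlings express A9 from the 35S promoter, which is active in vegetative organs. Seeds were imbibed in the dark for 1 day, and seedlings had an age of 3 weeks. For seedling growth the paper describes a photoperiod of light and dark. In each library, equal amounts of 4 RNA preparations from 3 sibling line pairs with different single insertions were pooled. Each condition of a comparison therefore had 1 library, and none of the differences given here was checked by replicates. No value of the sunflower transgenes was analysed here.

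Levels are in FPKM (fragments corrected for the length of the transcript and the library's depth), and each comparison was normalized separately. The steps between low FPKM values gave depths of 11200000 to 16350000 fragments per library, at which a gene of 1 kb and an FPKM of 1 rests on 10.5 to 15.3 fragments. Each log2 fold of T over NT carries a 95% counting interval (exact binomial, from the fragments of both libraries), which covers counting error only and compares the libraries, not the conditions. The tables list only genes selected by a log2 fold of about 0.6 or more (higher) or -0.5 or less (lower), and the A9up table lists genes selected as higher in both A9 comparisons. The values of members outside a table were not analysed here. Of the seed protein genes of the DS10:A4a comparison, those with the highest levels were oleosin 1-like (gene_77511), at 18.1 FPKM in NT seeds and 12.6 FPKM in transgenic seeds, and Lea5-like (gene_44720), at 4.65 and 20.5 FPKM. No gene of the seed list was in the A9up table, so the DS10:A9 seeds and the seedlings have no value for it. In these bulk samples, fewer cells of a type and less RNA per cell cannot be told apart.

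Among the listed values of the 47 members, a pair of PsbR genes stood above the others in seeds and was higher in T than in NT in all 3 comparisons. In both A9 comparisons that direction was set by the selection of the A9up table and is not a finding. PsbR, the 10 kDa polypeptide of PSII, is a small thylakoid protein that in Arabidopsis helps to hold the oxygen-evolving enhancer PsbP on the complex. The copy gene_38985 had its best hit in *Nicotiana tomentosiformis* and gene_70553 in *Nicotiana sylvestris*, which are relatives of the progenitors of the allotetraploid tobacco. Reads can be shared between such copies, so the split between them is uncertain. In seeds no other member listed reached 10 FPKM, a level found for 2 of 5 members in the DS10:A9 comparison (40%, against 2.78% of all genes of its table) and for 2 of 45 in the DS10:A4a comparison (4.44%, against 3.34%).

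In the DS10:A9 comparison, gene_38985 was at 22.5 FPKM in NT seeds and at 52.3 FPKM in the transgenic seeds. With 157 and 379 fragments, its log2 fold was 1.22 (counting interval 0.94 to 1.49). The other copy, gene_70553, was at 16.6 and 47.05 FPKM, with a log2 fold of 1.50 (1.19 to 1.83) on 111 and 328 fragments. Both copies were thus between 2.32 and 2.83 times as high in the transgenic library, and their folds differed by 0.29 on the log2 scale (-0.12 to 0.70), an interval that includes 0. Among the 132 genes of the table that reached 10 FPKM in this comparison, the pair had the ranks 17 and 28 by log2 fold.

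In seedlings the same pair had a larger fold. NT seedlings had 42.5 FPKM of gene_38985 and 35S:A9 seedlings 849 FPKM, for a log2 fold of 4.32 (4.17 to 4.47) on 362 and 7276 fragments. Of gene_70553 they had 54.1 and 927 FPKM, for a log2 fold of 4.10 (3.96 to 4.24) on 443 and 7645 fragments. By FPKM in 35S:A9 seedlings these genes were at ranks 5 and 4 of the 4753 A9up genes with values in both comparisons. The log2 fold in seedlings exceeded that in DS10:A9 seeds by 3.10 for gene_38985 (2.79 to 3.41) and by 2.60 for gene_70553 (2.26 to 2.94). Promoter, organ, age and light all differ between these comparisons and cannot be told apart.

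In the DS10:A4a comparison the pair was again higher in the transgenic library, but the copies differed from each other. NT seeds had 21.2 FPKM of gene_38985 and DS10:A4a seeds 76.1 FPKM, for a log2 fold of 1.84 (1.62 to 2.07) on 213 and 774 fragments. Of gene_70553 they had 24.5 and 47.03 FPKM, for a log2 fold of 0.94 (0.71 to 1.17) on 237 and 460 fragments. The fold of gene_70553 was lower than that of gene_38985 by a log2 difference of -0.90 (-1.22 to -0.59). In seedlings the same difference was -0.22 (-0.43 to -0.01).

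**Figure D1:**
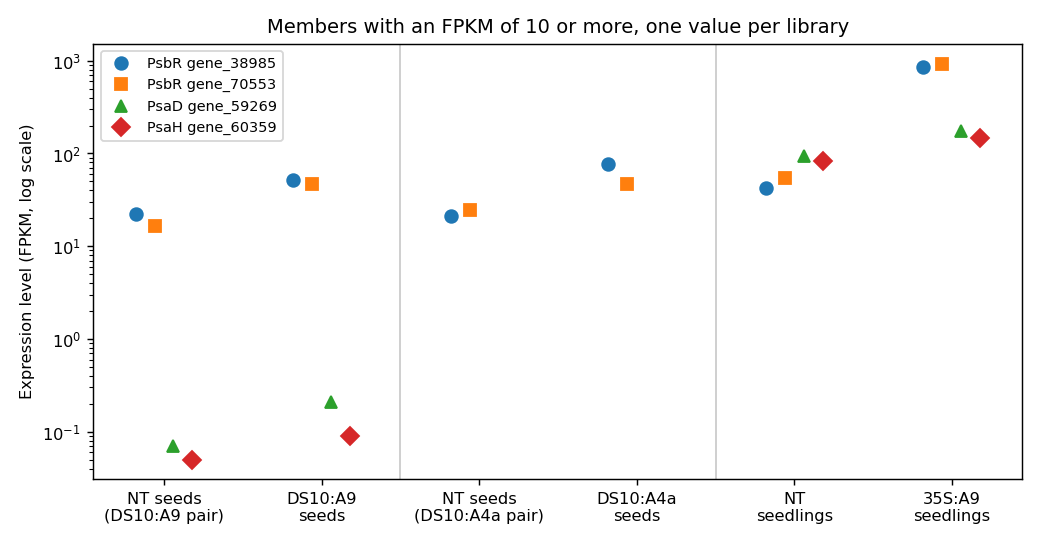
FPKM (log axis) of the 4 members that reached 10 FPKM, 1 point per library and no error bars, as there was 1 library per condition. The PsbR pair was above 10 in all 6 libraries and reached 849 and 927 in 35S:A9 seedlings, whereas the PsaD and PsaH genes were at 0.21 or less in the seeds of the DS10:A9 comparison and have no value in the DS10:A4a comparison.

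Setting the seed comparisons side by side, gene_38985 had the larger log2 fold with A4a (by 0.63, 0.28 to 0.97) and gene_70553 with A9 (A4a minus A9 -0.56, -0.95 to -0.18). The NT seed libraries themselves differed for the latter. From the NT library of the DS10:A9 comparison to that of the DS10:A4a comparison, the log2 ratio was 0.56 (0.24 to 0.90) for gene_70553 and -0.09 (-0.39 to 0.22) for gene_38985. The transgenic levels of gene_70553 were 47.05 and 47.03. The smaller A4a fold of gene_70553 thus went with a higher NT level, and these values were normalized separately.

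Summed over both copies, the level was 39.1 FPKM in NT and 99.3 FPKM in T in the DS10:A9 comparison, 45.8 and 123 FPKM in the DS10:A4a comparison, and 96.6 and 1776 FPKM in the seedling comparison. Of the fragments of the pair, gene_38985 took 58.6% in NT seeds (exact 95% interval 52.4 to 64.5%) and 53.6% in DS10:A9 seeds (49.9 to 57.3%). It took 47.3% in the NT seeds of the DS10:A4a comparison (42.6 to 52.1%) and 62.7% in DS10:A4a seeds (59.96 to 65.4%). In seedlings its share was 45.0% in NT (41.5 to 48.5%) and 48.8% in 35S:A9 (48.0 to 49.6%). The intervals of T and NT overlapped in both A9 comparisons and did not overlap in the DS10:A4a comparison, but overlap does not test a change of share. Those of the 2 NT seed libraries did not overlap either (52.4 to 64.5% and 42.6 to 52.1%). The share thus also differed between nontransgenic libraries, by more than their counting intervals. The log2 fold of gene_70553 minus that of gene_38985 compares the shares directly. Its interval was below 0 in the DS10:A4a comparison (-1.22 to -0.59) and, narrowly, in the seedling comparison (-0.43 to -0.01). In the DS10:A9 comparison it included 0 (-0.12 to 0.70).

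**Figure D2:**
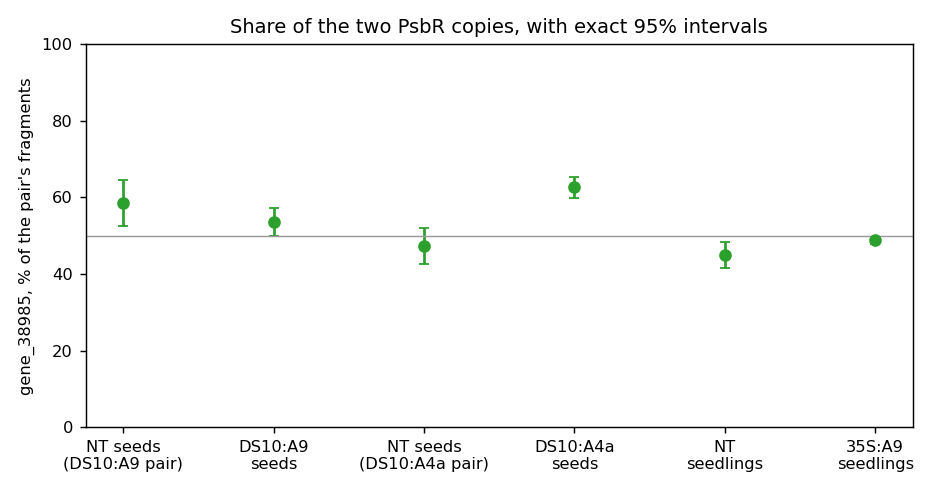
Percent of the fragments of the PsbR pair that belonged to gene_38985 in each library, with exact 95% binomial intervals as bars and a line at equal shares. The share went from 47.3% in NT to 62.7% in DS10:A4a seeds, and lay between 45.0% and 58.6% in the other libraries. The NT seed libraries themselves differed, at 58.6% in the DS10:A9 comparison and 47.3% in the DS10:A4a comparison.

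A further PsbR gene, gene_2356, was weakly expressed. It was at 0.48 FPKM in NT seeds and 0.83 FPKM in DS10:A4a seeds, on 7 and 12 fragments, with a counting interval of the log2 fold from -0.70 to 2.34. This copy was not in the A9up table.

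The A9up table held 5 members, namely the PsbR pair, 2 PSI subunit genes and 1 assembly factor gene. Their direction was set by the selection of that table, in which 99.5% of genes reached a log2 fold of 0.6 in the DS10:A9 and 99.6% in the 35S:A9 comparison. Counting intervals were above 0 for 2 of 5 members in the DS10:A9 comparison, where 20.5% of all genes of the table had one, and for 4 of 5 in the 35S:A9 comparison, against 42.9%. A level of 1 FPKM or more was reached by 2 of 5 members in the DS10:A9 comparison (40%, against 30.3% of the table) and by 4 of 5 in the 35S:A9 comparison (80%, against 46.3%), where the same 4 also reached 10 FPKM (80%, against 8.31%). The median log2 fold of the 5 members was 1.50 in the seed comparison and 0.92 in the seedling comparison, and that of all genes of the table above 0 in both libraries was 1.09 and 1.24. With 5 members these shares and medians are a description.

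The PSI genes of the A9up table were seedling genes. PsaD (subunit II, gene_59269), the stromal subunit on which ferredoxin docks, was at 92.7 FPKM in NT seedlings and 176 FPKM in 35S:A9 seedlings, with a log2 fold of 0.92 (0.83 to 1.01) on 1522 and 2907 fragments. PsaH (subunit VI-2, gene_60359), which in Arabidopsis takes part in docking the mobile antenna on PSI, was at 83.4 and 145 FPKM, with a log2 fold of 0.80 (0.72 to 0.88) on 1834 and 3218 fragments. In seedlings they were thus 1.90 and 1.74 times as high in T as in NT, beside 19.96 and 17.1 times for the PsbR copies. In NT and DS10:A9 seeds PsaD was at 0.07 and 0.21, from 1 and 3 fragments, and PsaH at 0.05 and 0.09, from 1 and 2 fragments, and both counting intervals included 0. At this depth no difference of either gene was detectable in seeds. In NT seedlings both PSI genes were above the PsbR copies, and in 35S:A9 seedlings both were below them.

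The last of the 5, gene_73273, encodes PSB27-H2, a lumenal factor that in Arabidopsis is needed to process the D1 precursor. Its level was 0.06 FPKM in NT and 0.19 FPKM in T in the DS10:A9 comparison, and 0.07 and 0.13 FPKM in the seedling comparison, with 1 and 3 fragments each time. It was at 0.04 in NT seeds and listed at 0 in DS10:A4a seeds, which is 1 fragment against none. These values do not separate T from NT in any comparison.

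In the DS10:A4a comparison 45 members were listed, and apart from the PsbR pair most were barely expressed. In the transgenic library 24 were higher (53.3%, against 46.0% of all genes of the A4a tables) and 21 were lower (46.7%, against 54.0%). Without the 5 members of plastid description, 21 were higher (52.5%) and 19 lower. The median level of the higher members was 0.04 in NT and 0.205 in T, and that of the lower members 0.17 and 0.05. In both libraries together the members had a median of 3 fragments and all genes of the tables a median of 8. Of the 45, 27 rested on 5 fragments or fewer (60%, against 41.8% of all genes) and 19 were listed at 0 in a library (42.2%, against 30.5%), 11 of them in NT and 8 in T. A level of 1 FPKM or more was found for 5 members (11.1%, against 28.9%), of which 3 were higher (60%, against 40.4% of all genes at that level) and 2 lower. Of the 45, 3 were also in the A9up table (6.67%, against 8.84%).

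Counting intervals were above 0 for 2 members (4.44%, against 8.89% of all genes) and below 0 for another 2 (4.44%, against 11.9%). Those above were the PsbR pair. Those below were a PsaH gene and the gene of PSB27-H1. The median log2 fold of the 26 members above 0 in both libraries was 0.12, and that of the 20595 such genes in the tables -0.57. The tables leave out folds between their thresholds, so these medians depend on the share of genes in each direction. The value of 0.12 lies between the thresholds and is not the fold of any member. Without the PsbR pair, the summed level of the other 43 members was 12.9 in NT and 13.5 in DS10:A4a seeds.

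**Figure D3:**
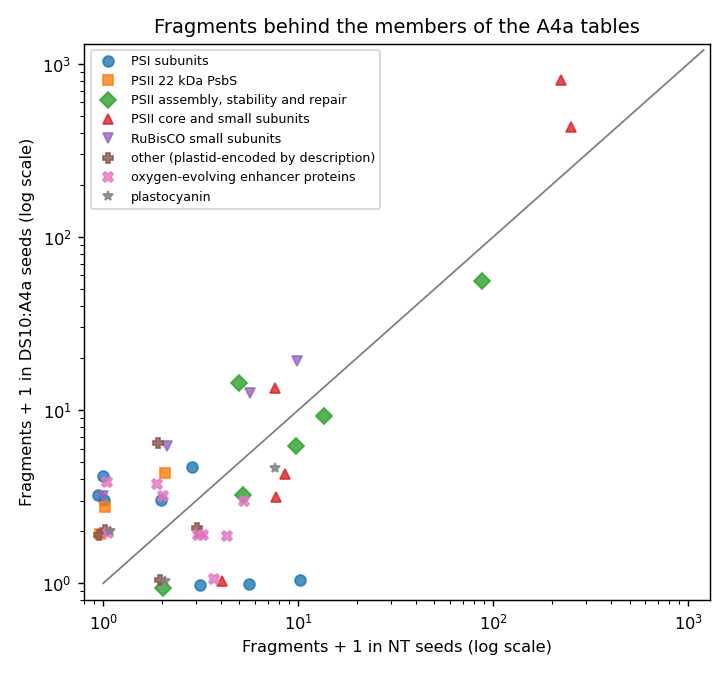
Fragments plus 1 in NT seeds (x, log axis) and in DS10:A4a seeds (y, log axis) for the 45 members of the A4a tables, 1 point per gene with symbols by class, moved slightly at random so that equal values do not hide each other, and a line where both libraries are equal. The PsbR pair lies at the upper right, far from the rest, and 27 of the 45 members have 5 fragments or fewer in both libraries together.

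Other small subunits of PSII had lower levels in the DS10:A4a library, all with counting intervals that included 0. PsbW, which stabilises the association of PSII with its antenna, was at 0.73 in NT and 0.20 in T seeds for gene_30025, from 7 and 2 fragments. For gene_35301 it was at 0.17 and 0.08, from 2 fragments and 1. PsbY, a small membrane-spanning subunit, was at 0.36 and 0.13 for gene_54710, from 8 and 3 fragments. A further PsbY gene rested on 3 fragments. So the 7 genes of this class split into 3 PsbR genes that were higher and 4 PsbW and PsbY genes that were lower, and only the PsbR pair exceeded the counting error.

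The factors that build and repair PSII had 1 gene higher and 5 lower. PSB27-H1, which in Arabidopsis is needed for the repair of photodamaged PSII, was the best covered of them. Its gene, gene_68550, was at 4.29 FPKM in NT seeds and 2.94 FPKM in DS10:A4a seeds, with a log2 fold of -0.55 (-1.07 to -0.04) on 81 and 56 fragments. The interval ended just below 0, and with depths set 10% lower it reached it (-1.08 to 0.0006). The PSB27-H2 gene gene_73281 was at 0.10 and 0.34, a log2 fold of 1.77 (-0.01 to 3.76) from 4 and 13 fragments. Its interval began just below 0 and moved above it with depths set 10% higher (0.12 to 3.85) or 10% lower (0.09 to 4.45). With so few fragments these shifts depend on rounding to whole fragments and add no evidence of a difference.

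Psb28, which takes part in assembling the core antenna of PSII, was at 0.89 in NT and 0.61 in T seeds for gene_14756, a log2 fold of -0.54 (-1.95 to 0.79). HCF136, a lumenal factor required early in PSII assembly, was at 0.38 and 0.21 for gene_59900, from 9 and 5 fragments. Neither difference exceeded the counting error. Of the PSB27-H2 genes besides gene_73281, the copy gene_73273 is described above and gene_73284 was lower, at 0.34 and 0.17 on 6 fragments.

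PSI had 8 genes in the A4a comparison, of which 5 were higher and 3 lower. The gene with the most fragments was a PsaH gene (subunit VI-1, gene_3361), at 1.06 in NT seeds from 10 fragments and listed at 0 in DS10:A4a seeds. The upper end of its counting interval was a log2 fold of -1.18. A second gene of the same product was at 0 in NT and had 2 fragments in T. The PsaK gene gene_26815, for a subunit that binds the PSI antenna, was at 0.51 in NT seeds from 5 fragments and listed at 0 in T, and its interval reached a log2 fold of 0.11, or -0.25 with the full transcript length.

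The remaining PSI genes rested on 6 fragments or fewer. PsaD (gene_19107) was at 0.10 in NT and 0.20 in T. PsaF (subunit III, gene_33005), which in PSI receives plastocyanin, was at 0.07 and 0.13. PsaL (subunit XI, gene_35387) was listed at 0 in NT and at 0.23 in T, on 3 fragments, and PsaN (gene_22923), a lumenal subunit, was at 0.05 in NT and listed at 0 in T. The listed PSI genes were thus near the limit of detection in imbibed seeds, and no direction can be read from these 5.

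The oxygen-evolving enhancer proteins sit on the lumenal side of PSII, where PsbO (enhancer 1) stabilises the manganese cluster and PsbP and PsbQ (enhancers 2 and 3) help to retain calcium and chloride. Of their 9 genes in the A4a comparison, 4 were higher and 5 lower. Their FPKM was 0.18 or less in each library and none rested on more than 6 fragments. The highest was a PsbP gene (gene_75034), at 0.18 in NT and 0.09 in T. Of the PsbO genes, gene_73696 was listed at 0 in NT and at 0.15 in T, whereas gene_78033 was at 0.16 in NT and listed at 0 in T. All 9 counting intervals included 0.

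PsbS, the 22 kDa protein that senses an acid lumen and starts the dissipation of excess light as heat, was represented by 3 genes. All were higher in DS10:A4a seeds, with levels of up to 0.25 from 1 to 4 fragments. The gene with both libraries above 0, gene_12146, was at 0.05 in NT and 0.14 in T, and gene_11946 and gene_11945 were listed at 0 in NT and at 0.25 and 0.06 in T. The intervals of all 3 included 0.

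The RuBisCO small subunit genes were higher in DS10:A4a seeds, 4 of 4 (against 46.0% of all genes of the A4a tables), and no counting interval was above 0. The level of gene_35341 was 1.31 in NT and 2.80 in T, a log2 fold of 1.10 (-0.15 to 2.39) from 9 and 19 fragments. With depths set 10% higher its interval moved just above 0 (0.02 to 2.52). That of gene_62621 was 0.37 and 0.96, a log2 fold of 1.38 (-0.36 to 3.10) from 5 and 12 fragments. The gene gene_53497 was listed at 0 in NT and at 0.86 in T, on 2 fragments, and the fourth gene rested on 6 fragments. All 4 have descriptions of the same S41 small chain, so reads may be shared among them. None was in the A9up table.

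Plastocyanin genes were near the limit too. Of the A'/A'' type, gene_38263 was at 0.17 in NT and 0.10 in T from 7 and 4 fragments, a log2 fold of -0.77 (-3.04 to 1.15), and gene_28006 was at 0.28 in NT from 1 fragment and listed at 0 in T. The B'/B'' gene gene_15943 was listed at 0 in NT and at 0.02 in T. The 5 members with plastid descriptions had 3 genes higher and 2 lower. Of the P700 apoprotein A1 type, gene_77079 was at 0.04 and 0.21 from 1 and 5 fragments and gene_73960 was listed at 0 in NT and at 0.05 in T. A D1 gene (gene_77841) was listed at 0 in NT and at 0.28 in T, and the genes of the 47 kDa protein were at 0.13 and 0.07 (gene_20592) and at 0.09 and 0 (gene_54461). All of these rested on 11 fragments or fewer.

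**Figure D4:**
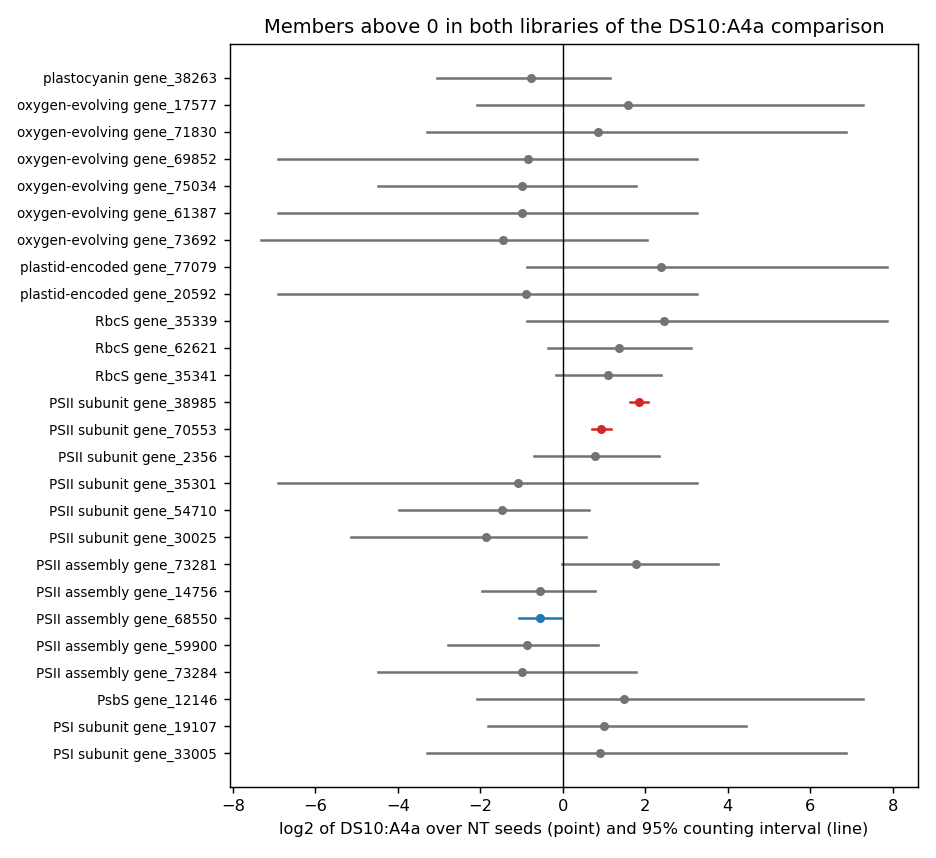
Log2 fold of DS10:A4a over NT seeds (points) with 95% counting intervals (lines) for the 26 members above 0 in both libraries, grouped by class. Red marks intervals above 0 and blue an interval below 0: the PsbR pair at 1.84 and 0.94 and the PSB27-H1 gene gene_68550 at -0.55, while the other lines cross 0.

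Beyond the rule, annotation and the species of the best protein hit were examined. Annotation to a photosystem, plastocyanin or RuBisCO small chain in KEGG was given for 42 of the 47, and a photosystem, thylakoid or chloroplast component in GO for 29. The best protein hit was in *N. tomentosiformis* for 25 members and in *N. sylvestris* for 17. In the A4a tables, 12 of the former were higher and 12 lower, and 9 of the latter were higher and 7 lower.

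Other photosynthesis genes, chosen by description, were compared in the same way. The light-harvesting chlorophyll a/b proteins, which form the antennae, had 11 genes in the A9up table, all with counting intervals above 0 in 35S:A9 seedlings and 1 in DS10:A9 seeds. In the A4a comparison 9 genes of this list were higher and 20 lower, with 0 intervals above and 4 below 0, and at 1 FPKM or more 1 was higher and 7 were lower. Their median log2 fold there was -0.84. The Calvin cycle list had 3 genes in the A9up table, 2 of them with intervals above 0 in each A9 comparison. These were the RuBisCO activase genes gene_62894 and gene_72548, with log2 folds of 5.52 and 4.72 in DS10:A9 seeds and of 5.25 and 5.42 in 35S:A9 seedlings, which are larger than those of the PsbR pair. The electron transport list and that of further plastid-encoded photosystem genes had 1 gene each in the A9up table, the former with an interval above 0 in seedlings. The Calvin cycle list had 12 genes higher and 13 lower in the A4a tables, with 7 intervals above and 4 below 0, and the electron transport list had 5 higher and 1 lower, with 1 interval above 0. The single chloroplast ATP synthase gene, gene_32891, was at 0.76 FPKM in NT and 0.53 FPKM in transgenic seeds. Of 4 further plastid-encoded photosystem genes, 1 was higher and 3 were lower, with 1 interval below 0. Of 7 seed protein genes in the A4a tables, 3 were higher and 4 lower, with 1 interval on each side. Their summed level was 23.6 in NT and 33.9 in T, and Lea5-like (gene_44720), with a log2 fold of 2.14 (1.69 to 2.60), was the gene with the interval above 0. The part of seed content in the values of the members was not tested.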

How the data were processed

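Total RNA was sequenced with paired-end reads on an Illumina HiSeq instrument, 2 times for each mix, and the tables give 1 value per library. Per the labels, the authors' processing notes name HISAT 0.1.6, StringTie 1.04, Bowtie2 2.2.5 and RSEM 1.2.12. The reference was a tobacco transcriptome to which the authors added newly assembled transcripts, and FPKM values were made by the authors with RSEM and deposited with 0 written as 0.01. RSEM assigns reads shared between copies by estimate, so levels of close copies depend on it. The deposited tables also hold the authors' fold changes and p-values, which were not used, and transcript lengths, which were. A further 2 tables of overlapping genes repeat rows of the others and were not used. The labels do not assign the 2 NT seed libraries to the seed comparisons, and each was used with the T column beside it in its table. No sample column was left unused.

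The log2 of T over NT was taken from the deposited FPKM values (SciPy 1.17.1 and NumPy 2.4.6 under Python 3.11.15; matplotlib 3.10.9 for figures). For each comparison, depths (in steps of 50000) and a length offset of 45 or 65 bases were fitted so that low FPKM values gave whole fragments. Of low genes (250 to 900 bases, up to 3.5 fragments), 89.2 to 96.6% came within 0.1 of a whole number. Fragments gave exact Clopper-Pearson intervals. Intervals of differences between folds are normal approximations on the log scale. With 1 library per condition no p-value is given, and as the tables are selected no enrichment was run. On simulated data of the same genes (DS10:A9 and 35S:A9 4753 genes, DS10:A4a 29629), unchanged genes were checked where both libraries together had 20 fragments or more. Their intervals included 0 for 96.2 to 96.7%. A log2 change of 1 was outside counting error for 80 to 83% of changed genes that were expected to have over 20 fragments in the NT library alone. In the DS10:A4a comparison only 5 members had 20 fragments or more in both libraries together, so this share does not apply to all of them. The simulation did not select genes by their fold, as the tables do, so coverage for selected genes and for genes with fewer fragments was not tested.

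Members and lists were chosen with earlier results of these data known. Members were named if they reached 10 FPKM in a library, were in the A9up and an A4a table, or were among the 3 with the highest mean FPKM of their class in a table; by this rule 39 were named, and gene_73284 was named besides after its values were seen. None of the 47 protein accessions matched the RefSeq gene table at hand (assembly ASM71507v2, cultivar K326), so no coordinate or sequence was used here. Alternatives were pseudocounts of 0.1 and 1, an FPKM minimum of 1, depths 10% higher or lower, full transcript length, a lower threshold of -0.6, and a search of all protein descriptions of a gene.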

Additional observations from a re-analysis of the deposited data

How the results depend on the processing

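No replicate was available, levels of close copies depend on how shared reads were assigned, and most members rested on few fragments, so their folds have wide intervals. No paired analysis was possible because each condition had 1 library and the labels give no replicate numbers that could pair libraries. With a minimum of 1 FPKM in a library, 3 members were higher and 2 lower in DS10:A4a seeds (24 and 21 without a minimum), and 2 of the 5 A9up members remained when the minimum was required in each comparison, both of them PsbR genes. With the minimum applied to each comparison alone, the median log2 fold was 1.36 in place of 1.50 for DS10:A9 (2 members), 2.51 in place of 0.92 for 35S:A9 (4 members, the PSI genes included) and 1.02 in place of 0.12 for DS10:A4a (4 members above 0 in both libraries). With a pseudocount of 0.1 the DS10:A9 median was 0.87, and with one of 1 it was 0.18. The DS10:A4a median with a pseudocount of 0.1 was 0.34, but it also took in the members listed at 0 in a library. It is therefore not over the same members as the median of 0.12. Counting intervals above 0 in the DS10:A4a comparison numbered 4 in place of 2 with depths 10% higher, and those below 0 numbered 1 in place of 2 with depths 10% lower. With the full transcript length the interval of the PsaK gene gene_26815 was below 0 (upper end -0.25). A search of all descriptions gave 26 members higher and 22 lower with A4a and 7 in the A9up table, and a threshold of -0.6 left 19 lower. Leaving out the 5 members of plastid description, an alternative chosen after seeing the data, left 21 higher and 19 lower with A4a. A pseudocount can only draw a fold toward 0, and one of 1 took that of the PsaD gene gene_59269 in the DS10:A9 comparison from 1.58 to 0.18.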
